A study of Mus musculus with 4 samples.

Results

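FAIRE-positive regions were collected at 8 genes that encode parts of the basement membrane: the laminin chain genes Lama3, Lama5, Lamb1, Lamb3 and Lamc1, the nidogen gene Nid1, and the proteoglycan genes Hspg2 and Agrn. A peak belonged to a gene if it lay in the gene body or in the 50 kb upstream of its transcription start site (TSS), by the GENCODE symbols on mm10. Peaks of the 4 lists that overlapped were merged into regions, which gave 38 regions at these loci out of 35796 in all. FAIRE-seq sequences the DNA that is not crosslinked to protein, so that a peak marks accessible chromatin. The cells were EpRas, a mouse mammary gland epithelial line that expresses active H-Ras, in every group, and all were harvested at day 4. The 4 groups were untreated cells with control siRNA (siControl), the same siControl cells under TGF-β (1 ng/ml, named TGF-β/siControl here), and cells under TGF-β that received siEtv4/5 set 1 or siEtv4/5 set 2. Each set pairs a different siRNA against Etv4 with a different siRNA against Etv5, both members of the ETS family of transcription factors. Peak lists do not show how far the Etv4 and Etv5 transcripts were depleted. The questions were which regions opened or closed with TGF-β, and which depended on Etv4 and Etv5 in its presence.

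Each group held 1 list of peaks, so no spread between replicates could be measured and no test of a condition was possible. Intervals cover counting error only, and those of a share of peaks treat the peaks as independent. The biological replicates that the study describes may be pooled in each list. The estimated depth was 15.3 M reads in the untreated library, 16.3 M in TGF-β/siControl, 17.3 M with set 1 and 20.7 M with set 2, and the lists held 22247, 28754, 22516 and 14925 peaks in this order. The deepest library thus gave the shortest list. Fold enrichment is the deposited ratio of summit signal to local background. Fragment numbers at the summits were solved from this ratio together with the deposited p-value. As a check of the labelled cell type, the promoters of 10 epithelial marker genes were examined. A region was called there in 7 of the 10 in each siControl library, in 4 with set 1 and in 2 with set 2, while no promoter of 4 immune markers was called in any library. Krt8 was the epithelial marker called in all 4 libraries. The called epithelial promoters were thus fewer with both siRNA sets than in the siControl libraries. Among all protein-coding genes, a promoter region was called in 36.1% untreated, 38.1% in TGF-β/siControl, 34.2% with set 1 and 27.3% with set 2. The difference from this share, and the part of the epithelial promoters in the results, were not tested. Of 4 basal or myoepithelial markers, Krt14 was called in all 4 libraries and the others in none. Of 4 fibroblast markers, Pdgfra and Col1a1 had a called promoter region in some library, and of 4 endothelial markers Pecam1 did. Accessibility is not expression, and no RNA was measured here.

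The basement membrane is the thin sheet of extracellular matrix on which epithelial cells rest. Laminins are its main adhesive proteins. Each is a trimer of an α, a β and a γ chain, encoded by the Lama, Lamb and Lamc genes. Many laminins, though not all, polymerise next to the cell surface, and laminins are bound by integrins and dystroglycan. Nidogen connects the laminin layer to the network of type IV collagen, and the heparan sulphate proteoglycans perlecan (Hspg2) and agrin (Agrn) bind to both and hold growth factors. In the mammary gland the contact with a laminin-rich basement membrane maintains the polarity of the epithelium, and this contact is remodelled during EMT.

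The windows printed here are a selection by position and fold enrichment, apart from the last, and not by weight in the results. No window of Lama3 was eligible. Each reaches 100 bases to either side of the summit of the strongest library and is written 5′ to 3′ on the plus strand of mm10. None of these windows holds an annotated UTR or coding base. Capitals mark letters of an AP-1 site (TGANTCA), an ETS site (CCGGAA or CAGGAA) or a RUNX site (TGTGGTT) on either strand. The last letters of the AP-1 pattern can be shared with CAGGAA. The first 3 windows are intronic or upstream regions of highest fold enrichment called in all 4 libraries in their genes, among windows free of such bases.
Lamc1 intron, chr1:153300443-153300643: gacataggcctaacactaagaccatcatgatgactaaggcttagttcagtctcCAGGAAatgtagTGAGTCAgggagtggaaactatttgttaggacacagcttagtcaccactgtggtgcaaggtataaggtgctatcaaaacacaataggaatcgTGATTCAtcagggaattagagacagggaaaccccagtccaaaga
Lama5 upstream, chr2:180251317-180251517: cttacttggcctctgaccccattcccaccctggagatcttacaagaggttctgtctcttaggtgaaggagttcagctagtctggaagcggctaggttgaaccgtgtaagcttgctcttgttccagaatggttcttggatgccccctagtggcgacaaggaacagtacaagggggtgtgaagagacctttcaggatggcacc
Lamb3 intron, chr1:193298254-193298454: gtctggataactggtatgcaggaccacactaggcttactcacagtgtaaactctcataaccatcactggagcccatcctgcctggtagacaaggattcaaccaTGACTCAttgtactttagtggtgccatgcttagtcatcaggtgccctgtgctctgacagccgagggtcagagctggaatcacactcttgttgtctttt
The next window is the strongest of these regions called only in TGF-β/siControl, and the one after it the strongest called in the untreated library and absent from TGF-β/siControl.
Lamc1 upstream, chr1:153351100-153351300: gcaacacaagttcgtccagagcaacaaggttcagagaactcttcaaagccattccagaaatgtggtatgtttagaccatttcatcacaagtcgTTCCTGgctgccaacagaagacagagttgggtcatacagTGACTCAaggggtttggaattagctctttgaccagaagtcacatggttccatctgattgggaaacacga
Lamc1 distal intron, chr1:153238091-153238291: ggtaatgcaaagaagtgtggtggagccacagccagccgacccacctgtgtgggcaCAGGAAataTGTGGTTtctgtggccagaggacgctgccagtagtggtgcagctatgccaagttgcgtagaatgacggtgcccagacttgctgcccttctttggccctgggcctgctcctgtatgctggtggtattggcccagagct
The last window is a member promoter called in every library but set 2, which was chosen after its values were seen.
Agrn promoter, chr4:156197928-156198128: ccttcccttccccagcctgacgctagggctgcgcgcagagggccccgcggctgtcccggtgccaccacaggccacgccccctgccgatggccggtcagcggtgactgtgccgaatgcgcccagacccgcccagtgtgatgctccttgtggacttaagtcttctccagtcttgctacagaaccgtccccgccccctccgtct

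The loci differed widely in how many regions they held. Lama5, the α chain gene of adult epithelial basement membranes (chromosome 2, 180176373 to 180225859), had 11 regions in a window of 99.5 kb, or 11.1 per 100 kb, a density above that of 97.3% of protein-coding genes. Lama3, the α chain gene of the hemidesmosomal laminin (chromosome 18, 12333819 to 12583013), had 8 regions in 299.2 kb (2.67 per 100 kb). Lamc1, whose γ chain is shared by most laminins (chromosome 1, 153218922 to 153332786), had 6 in 163.9 kb, and Agrn (chromosome 4, 156165290 to 156197488) had 4 in 82.2 kb. Lamb3, the β chain gene of the hemidesmosomal laminin (chromosome 1, 193207699 to 193343878), had 4 in 186.2 kb. Hspg2 (chromosome 4, 137468769 to 137570630) had 3 in 151.9 kb and Lamb1 (chromosome 12, 31265234 to 31329644) had 2 in 114.4 kb. Nid1 (chromosome 13, 13437551 to 13512269) had none in its window of 124.7 kb in any library, which was the case for 27.1% of protein-coding genes. The median of the 8 members was 2.41 regions per 100 kb, against 1.97 for the median protein-coding gene.

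**Figure D1:**
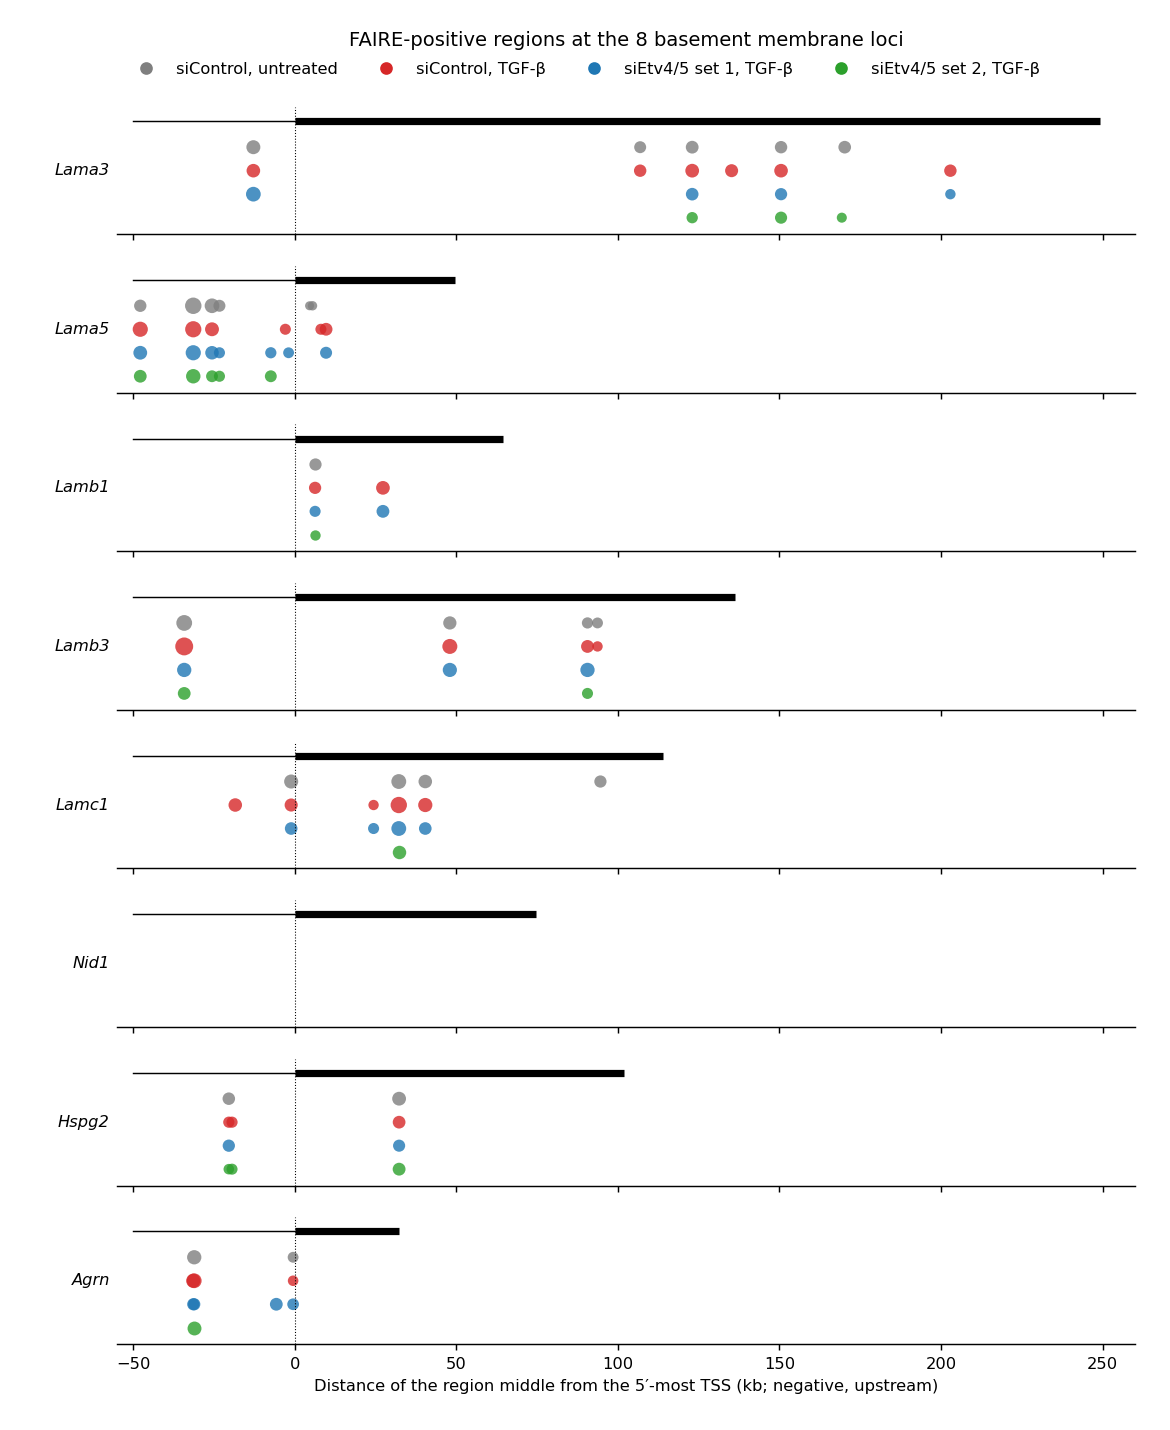
Regions at the 8 loci by distance from the 5′-most TSS in kb, with 1 row of points per library, the gene body as a thick bar and the 50 kb upstream as a thin line. The area of a point is proportional to fold enrichment. Nid1 is empty, Lama5 is the most crowded locus, and Lamc1 holds a single region with set 2.

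Over all members the untreated library held 24 regions, TGF-β/siControl 29, set 1 held 26 and set 2 held 16. Member peaks were 0.112%, 0.101%, 0.115% and 0.107% of the 4 lists in this order, and the number of member regions had the same order over the libraries as the length of the lists. The order differed between genes. Lama3 had 5 regions untreated, 6 in TGF-β/siControl, 4 with set 1 and 3 with set 2. Lama5 held 6, 6, 7 and 5 in this order, Lamb1 1, 2, 2 and 1, and Lamb3 4, 4, 3 and 2. Lamc1 held 4, 5, 4 and 1, the steepest drop between TGF-β/siControl and set 2 among the members. Of all peaks in TGF-β/siControl, 53.6% were absent with set 2, and the drop at this 1 gene was not tested. Hspg2 held 2, 3, 2 and 3, and Agrn 2, 3, 4 and 1. For the 2 members with the most regions, other genes had the same 4 counts. There were 10 such genes for Lama5, the first in alphabetical order being Bad, Frmd8 and Gpr137, and 22 for Lama3, the first being Acly, Ano8 and Atrnl1.

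Of the 38 regions, 12 (31.6%) were called in all 4 libraries, against 29.6% of all regions. A further 5 (13.2%, against 11.6% of all) were called in every library but set 2. Another 5 (13.2%, against 8.19% of all) were called in TGF-β/siControl and with set 1 alone, and 11 (28.9%, against 31.5% of all) were called in 1 library only. Member regions had a median GC content of 51.2% over 500 bp, and all regions 48.6%. Of the 38, 26 lay farther than 2 kb from any TSS, where 67.2% of all regions did.

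By position, 6 regions lay at a member promoter, with the middle within 2 kb of a TSS of that gene. Another 6 lay at the promoter of a neighbouring gene, 3 in exons, 15 in introns and 8 upstream. Of the 15 intronic regions, 9 were called in the untreated library, 13 in TGF-β/siControl, 10 with set 1 and 4 with set 2, where 54.4%, 78.5%, 58.0% and 35.2% of the intronic regions of all protein-coding genes were. Of the 8 upstream regions, 4, 6, 5 and 5 were called in this order, where 59.0%, 77.0%, 59.8% and 38.1% of the upstream regions of all protein-coding genes were. Member promoter regions numbered 4, 3, 3 and 1. At the promoters of neighbouring genes, 4, 5, 6 and 4 regions were called. No member promoter region was called in all 4 libraries, and 4 of the 6 regions at promoters of neighbouring genes were. Among all regions, at any position, the share was 29.6%, which is not a share of promoter regions. Counted by gene, 42.6% of protein-coding genes had a promoter region in any library and 23.7% in all 4. With 6 regions in each class, the contrast between the classes was not tested.

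**Figure D2:**
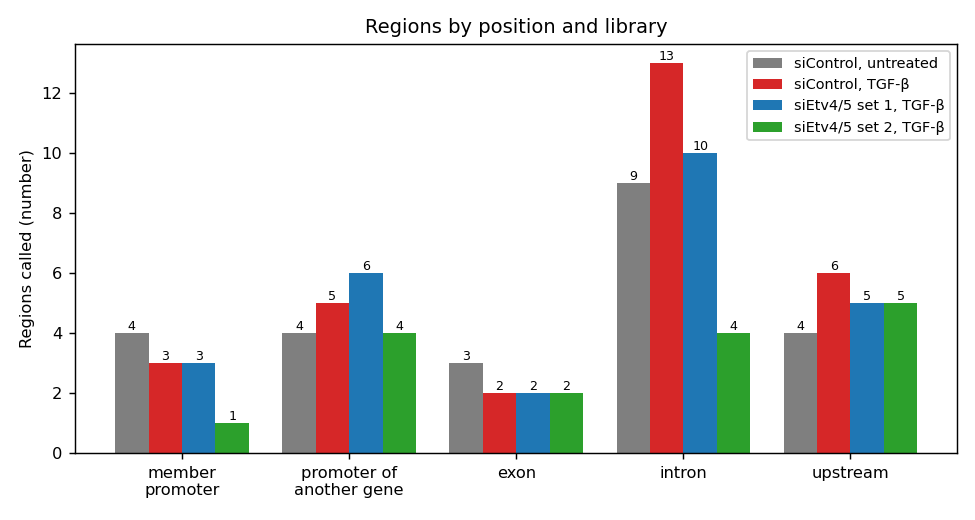
Number of member regions called in each library, by position. The intronic bars range from 13 in TGF-β/siControl to 4 with set 2, while upstream regions stay between 4 and 6. Of the intronic regions of all protein-coding genes, 78.5% and 35.2% were called in these 2 libraries. Of their upstream regions 77.0% and 38.1% were. The members have 8 upstream regions, and the contrast between positions was not tested.

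A promoter region was called in at least 1 library in 5 of the 8 members, where 42.6% of protein-coding genes had one. In the untreated library 4 of the 8 members had a promoter region, where 36.1% of protein-coding genes had one. In TGF-β/siControl and with set 1 it was 3 of 8, against 38.1% and 34.2% of protein-coding genes. With set 2 it was 1 of 8, against 27.3%. None of the 8 had a promoter region in every library, against 23.7% of protein-coding genes, and over 8 genes this difference has no test here. The promoters of Lamb1, Nid1 and Hspg2 had no region in any library. RefSeq promoter sequences around the TSS (GRCm38.p6) were matched for 6 of the members. They held 24 CpG in Lama5, 18 in Lamb1, 20 in Nid1 and 27 in Hspg2, where the median over all promoters was 7. Agrn, which has 2 annotated promoters, held 42 and 11, and Lamb3 2 and 5. The uncalled promoters of Lamb1, Nid1 and Hspg2 were thus rich in CpG, and the called promoter of Lamb3 was not. Agrn and Lama5, each with a promoter region called in some library, were rich in CpG too. Lama3 and Lamc1 had no matched sequence.

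The Lamc1 promoter region was the strongest of the member promoters. It lay 1.08 kb upstream of the TSS, so it is not a promoter region under the alternative limit of 1 kb. Its fold enrichment was 10.11 in the untreated library, 8.80 in TGF-β/siControl and 8.15 with set 1, with 35, 34 and 28 fragments at the summit, and it was not called with set 2. The log2 ratio of summit fragments per M reads was -0.13 (-0.86 to 0.59) for TGF-β and -0.37 (-1.14 to 0.40) for set 1, so both differences lay within counting error. At its local background a call with set 2 needed at least 17 fragments, and a region with fewer would be missed.

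The Agrn promoter region, on chromosome 4 at 156197937 to 156198136 and 0.55 kb upstream of the TSS, followed the same order of calls. Its fold enrichment was 6.03, 5.71 and 7.01 in the untreated, TGF-β/siControl and set 1 libraries, with 16, 17 and 20 fragments, and it was absent with set 2. These values stood close to the 14 fragments that a call with set 2 needed there. No AP-1, ETS or RUNX letters were found in its window.

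Lamb3 has 3 annotated TSSs, of which the first lies far upstream of the others, so that much of its annotated body precedes the later promoter. The region at the later promoter (chromosome 1, 193301327 to 193301548, 0.56 kb upstream of a TSS) was called in both siControl libraries and with neither siRNA set. Its fold enrichment was 6.08 untreated and 5.52 with TGF-β, with 24 and 27 fragments, where a call needed at least 19 with set 1 and 20 with set 2. Around this summit 1 stretch of AP-1 letters and 2 of ETS letters lay within 200 bp. Lama3 has an inner TSS as well, and no region was called at its outer one. At the inner TSS (chromosome 18, 12503950 to 12504146, 0.15 kb upstream) a region with a fold enrichment of 8.19 and 25 fragments was called in the untreated library alone. Another region 1.04 kb upstream of that TSS was called with set 2 alone, with a fold enrichment of 5.19 and 16 fragments. The non-coding antisense gene Gm29200 starts at the same place, so the signal there could not be assigned to either gene. The Lama5 promoter region, 1.94 kb upstream of the TSS on chromosome 2 at 180227712 to 180227880, was called with set 1 alone, with a fold enrichment of 6.01 and 25 fragments.

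Among the intronic regions, the one 32.2 kb into Lamc1 was the strongest (chromosome 1, 153300391 to 153300732). Its fold enrichment was 11.28 untreated, 13.66 in TGF-β/siControl, 11.25 with set 1 and 9.25 with set 2. The summit held 37, 49, 41 and 30 fragments in this order (95% exact Poisson intervals 26.1 to 51.0, 36.3 to 64.8, 29.4 to 55.6 and 20.2 to 42.8). The TGF-β library was the highest and set 2 the lowest, and the fragment intervals of neighbours in this order overlapped. These intervals are not scaled for depth, so their overlap does not compare accessibility between libraries, while the ratios that follow are scaled. The log2 ratio of summit fragments per M reads was 0.31 (-0.33 to 0.97) for TGF-β over untreated, -0.34 (-0.98 to 0.28) for set 1 and -1.05 (-1.76 to -0.37) for set 2 over TGF-β/siControl. Its window shows AP-1 letters at 32 bases before and 60 bases after the summit, and ETS letters (CAGGAA) 44 bases before it.

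Other intronic regions of Lamc1 were called in fewer libraries. The region 40.4 kb from the TSS (153292253 to 153292540) had a fold enrichment of 9.36 untreated, 10.33 with TGF-β and 8.17 with set 1, and was not called with set 2. The region 24.4 kb from the TSS was called in TGF-β/siControl at 5.48 and with set 1 at 6.28. The region 94.6 kb from the TSS (153238103 to 153238359) was called in the untreated library alone, with a fold enrichment of 7.66 and 20 fragments. Upstream of Lamc1, 18.4 kb from the TSS (153351120 to 153351321), a region was called in TGF-β/siControl alone, with a fold enrichment of 9.34 and 23 fragments. At that background the other libraries needed at least 12 (untreated and set 1) or 13 (set 2) fragments for a call. Its window holds ETS letters 4 bases before the summit and AP-1 letters 35 bases after it.

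At Lamb3, the region 3.66 kb upstream of the later promoter (chromosome 1, 193298160 to 193298503) had a higher fold enrichment with set 1 than in TGF-β/siControl. Its fold enrichment was 6.47 untreated, 8.44 in TGF-β/siControl, 10.44 with set 1 and 6.26 with set 2, with 25, 39, 44 and 26 fragments. The log2 ratio of fragments per M reads for set 1 was 0.09 (-0.57 to 0.75), within counting error, and that for set 2 was -0.93 (-1.70 to -0.18). Its AP-1 letters (TGACTCA) lie 6 bases after the summit. The region 48.0 kb into the annotated body of Lamb3 lies in Hsd11b1 too, and had a fold enrichment of 8.99, 11.52 and 10.28 in the untreated, TGF-β/siControl and set 1 libraries.

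Lamb1, the β chain gene of laminins made by many tissues, had its regions in introns. The region 6.3 kb from the TSS (chromosome 12, 31271403 to 31271736) appeared in all 4 libraries, at a fold enrichment of 7.63 untreated, 7.67 in TGF-β/siControl, 6.31 with set 1 and 5.48 with set 2. The untreated and TGF-β libraries did not differ there beyond counting error, with a log2 ratio of fragments per M reads of 0.12 (-0.70 to 0.96). The region 27.3 kb from the TSS (31292416 to 31292690) was called in TGF-β/siControl, at 9.59 with 23 fragments, and with set 1, at 8.42 with 23 fragments. The untreated library needed at least 12 fragments for a call at this place and set 2 at least 13.

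At Lama3 all regions of the gene body lay more than 100 kb from the outer TSS, on chromosome 18. The exonic region 123.0 kb from it (12456653 to 12457028) had a fold enrichment of 8.33 untreated, 9.65 in TGF-β/siControl, 8.14 with set 1 and 6.56 with set 2. The intronic region 150.5 kb from it (12484167 to 12484556) had 7.88, 9.48, 7.67 and 7.55 in the same order. In both, TGF-β/siControl was the highest library and set 2 the lowest. The region 12.8 kb upstream of the outer TSS had 9.99, 9.44 and 11.09 in the untreated, TGF-β/siControl and set 1 libraries, and was not called with set 2. The remaining introns held a region called in both siControl libraries (106.9 kb, 7.33 and 7.88), a region called in TGF-β/siControl alone (135.2 kb, 8.67) and a region called in TGF-β/siControl and with set 1 (202.9 kb, 7.91 and 5.54).

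The regions in the body of Lama5 stood on a high local background and changed between libraries. At 9.7 kb from the TSS (chromosome 2, 180216024 to 180216311) the fold enrichment was 8.37 in TGF-β/siControl and 7.38 with set 1, with 45 and 32 fragments. The untreated library, in which 18 fragments were needed for a call, and set 2, in which 20 were, had no call. At 8.1 kb a region was called in TGF-β/siControl alone, at 6.24 with 37 fragments. The opposite was seen at 5.5 kb and 4.6 kb, where regions with a fold enrichment of 4.51 and 4.18 and with 25 and 23 fragments were called in the untreated library alone. The latter values lay near the 21 fragments that the untreated library needed there. The local background in this stretch was 3.34 to 4.55 times the lowest background of the genome.

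Upstream of Lama5, the region 25.6 kb upstream (180251349 to 180251541) was present in every library. It was strongest in the untreated one, and its fold enrichment was 9.85 in TGF-β/siControl, 9.35 with set 1 and 7.18 with set 2. The summit held 30 fragments untreated and 26, 24 and 20 in the others in this order. The region 23.3 kb upstream was called at 7.36 untreated, 6.30 with set 1 and 6.33 with set 2, and not in TGF-β/siControl. The region 7.4 kb upstream was called with set 1 at 6.46 and with set 2 at 7.22, and in neither siControl library. The region 2.9 kb upstream was called in TGF-β/siControl alone, at 6.24. Farther out, the promoter of Rps21, a ribosomal protein gene, had 13.81, 13.44, 11.79 and 10.65, and the promoter of Cables2 had 7.81, 11.75, 9.72 and 8.33, both in the order untreated, TGF-β/siControl, set 1 and set 2.

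Hspg2 held 3 regions in TGF-β/siControl and the same 3 with set 2. Its exonic region 32.3 kb from the TSS (chromosome 4, 137500894 to 137501320) had a fold enrichment of 9.76 untreated, 8.28 in TGF-β/siControl, 7.53 with set 1 and 8.44 with set 2. The summits held 25, 27, 24 and 28 fragments, and the log2 ratios of fragments per M reads lay within counting error in all 3 comparisons. The upstream region called in all 4 libraries had 8.01, 6.45, 7.71 and 5.69. It held 2 peaks in the untreated library, of which the stronger is given. The other upstream region was called in TGF-β/siControl at 6.39 and with set 2 at 6.23. Agrn had its other regions at promoters of its neighbours. A region at the Plekhn1 promoter appeared in all 4 libraries, at 10.44, 11.16, 7.60 and 9.90, and a second 0.35 kb from that TSS in TGF-β/siControl at 10.30 and with set 1 at 7.60. At the promoter of AW011738 a region was called with set 1 alone, at 8.36.

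**Figure D3:**
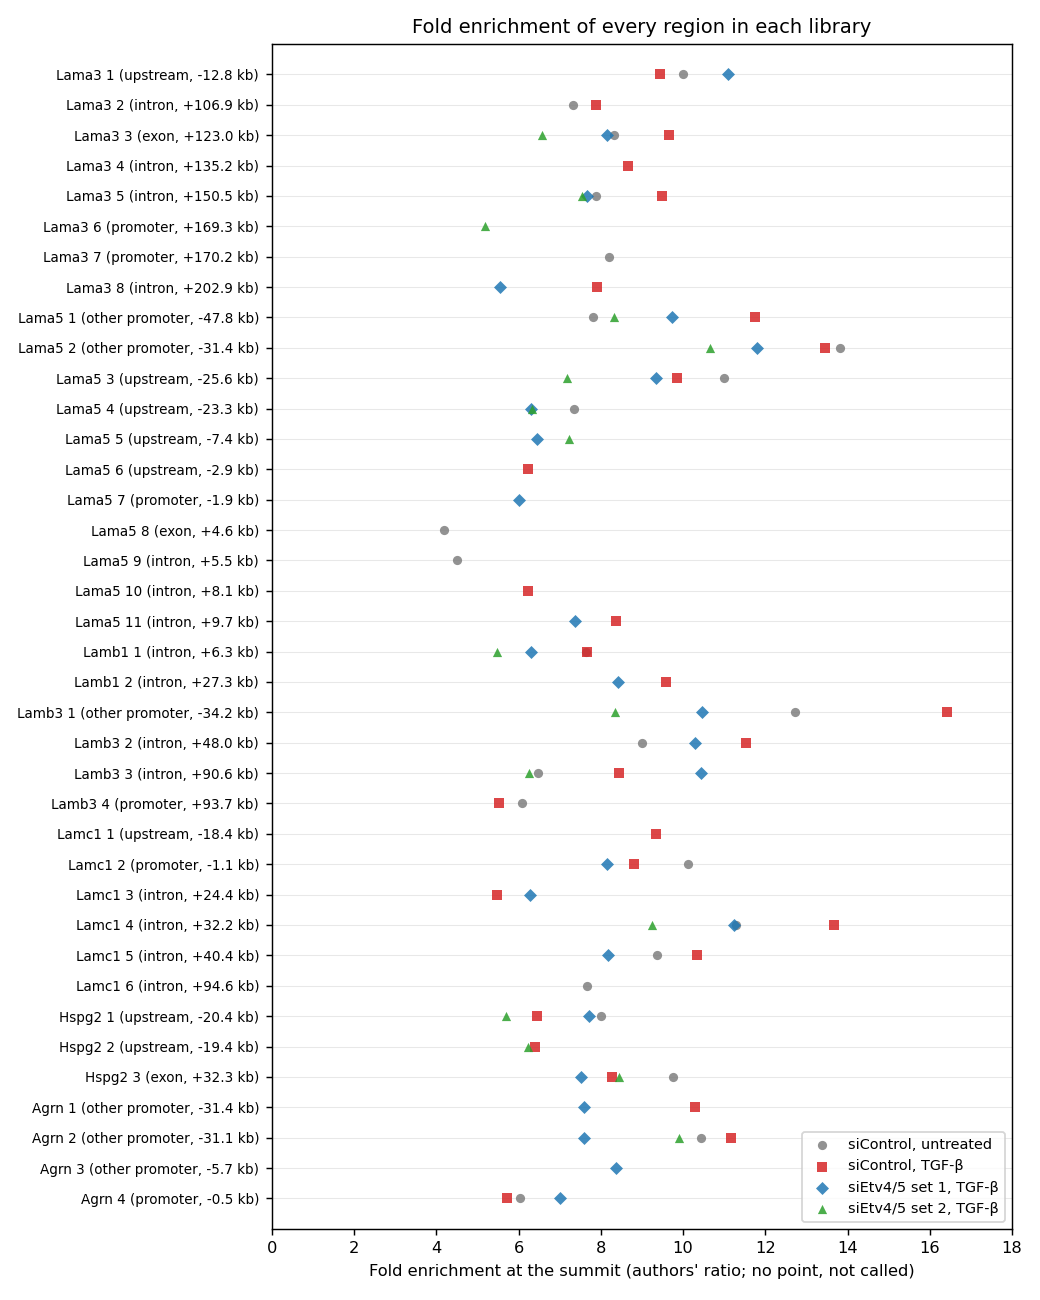
Fold enrichment of each of the 38 regions in each library, with regions numbered along the gene from upstream to downstream. A missing point means that the region was not called. The highest value is 16.41 at the A130010J15Rik promoter upstream of Lamb3 in TGF-β/siControl, and the lowest is 4.18 in an exon of Lama5 in the untreated library.

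The effect of TGF-β was compared by peaks that overlapped no peak of the other siControl library. Of the 29 member peaks in TGF-β/siControl, 10 (34.5%, exact 95% interval 17.9 to 54.3) were gained, where 37.0% of all peaks of that list were. Of the 25 untreated member peaks, 5 (20.0%, 6.83 to 40.7) were lost, where 18.4% of all were. Both shares stood near those of all peaks. Gained peaks were mostly distal, as in the genome: 9 of the 21 member peaks farther than 2 kb from any TSS were gained, where 44.8% of all such peaks were, and 1 of the 8 within 2 kb of a TSS, where 22.0% were. The gained peaks lay at Lama3, Lama5, Lamb1, Lamc1, Hspg2 and Agrn, and the lost ones at Lama3, Lama5 and Lamc1. With lists of equal length, 6 of 21 member peaks were gained, where 34.4% of all were, and 3 of 18 were lost, where 34.3% were.

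The effect of the siRNAs was compared in the same manner. Of the 29 member peaks in TGF-β/siControl, 7 (24.1%, 10.3 to 43.5) were absent with set 1, where 33.6% of all peaks were, and 16 (55.2%, 35.7 to 73.6) were absent with set 2, where 53.6% were. In the other direction 4 of 26 peaks (exact 95% interval 4.36 to 34.9%) were called with set 1 only, against 15.2% of all, and 3 of 16 (18.8%, 4.05 to 45.6) with set 2 only, against 10.3%. The share of all peaks lay within all 6 intervals. These are wide and treat the peaks of a list as independent, so this shows no agreement with the genome. With lists of equal length, 5 of 21 member peaks were absent with set 1, where 31.4% of all were, and 10 of 21 with set 2 (47.6%, 25.7 to 70.2), where 33.4% were. At that length 2 of 18 were called with set 1 only, against 31.4% of all, and 5 of 16 with set 2 only, against 33.0%. All 6 intervals at equal length contained the share of all peaks as well, with the same limits. Of the 21 member peaks farther than 2 kb from any TSS, 12 were absent with set 2, where 59.9% of all such peaks were. The comparisons with both sets use the same TGF-β/siControl library.

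**Figure D4:**
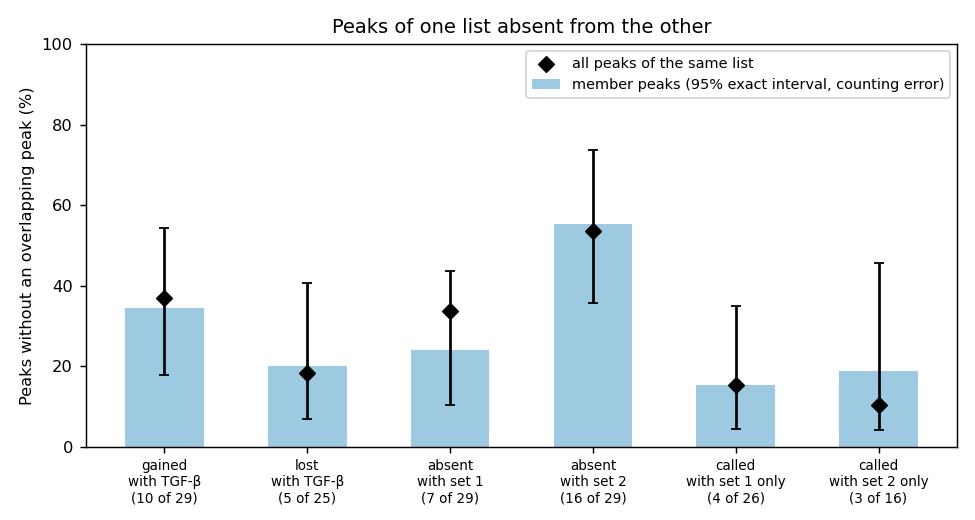
Percentage of member peaks of 1 list with no overlapping peak in the other (bars) and of all peaks of the same list (diamonds). The 95% exact binomial intervals treat peaks as independent. Every diamond lies within the interval of its bar, and the tallest bar is that of peaks absent with set 2, at 55.2%.

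At the 12 member regions called in every library, strength was compared by the log2 ratio of fold enrichment. Of these 12, 4 lay at promoters of neighbouring genes. For TGF-β over untreated the median was 0.15, with a range from -0.31 to 0.59, against a median of 0.14 over all 10594 such regions. Of the 12, 8 were higher with TGF-β, where 68.3% of all were. For set 1 over TGF-β/siControl the median was -0.26 (-0.65 to 0.31) against -0.18 over all, and 10 of 12 were lower, where 73.6% of all were. For set 2 it was -0.44 (-0.97 to 0.03) against -0.40, and 11 of 12 were lower, where 90.9% of all were. The medians of the members lay close to those of all regions.

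The counting error of single regions was larger than most of these ratios. For TGF-β, the 95% interval of the ratio of summit fragments per M reads contained 0 at all 12 regions. Over all regions it lay above 0 in 2.89% and below 0 in 0.208%. For set 1 it lay below 0 at 1 member region and above 0 at none, against 5.4% and 0.0661% of all. For set 2 it lay below 0 at 6 member regions and above 0 at none, against 37.8% and 0.00944% of all. These 6 include the promoters of Cables2, Rps21 and A130010J15Rik, which are neighbouring genes and not members. The region below 0 with both sets was the A130010J15Rik promoter upstream of Lamb3 (193173365 to 193173669), where the fold enrichment was 12.73, 16.41, 10.45 and 8.35 and the summit held 37, 51, 32 and 25 fragments in the order untreated, TGF-β/siControl, set 1 and set 2. It is the promoter of another gene, 34.2 kb upstream of Lamb3. Summed over the 12 regions, the summit fragments were 347, 417, 341 and 293 in this order. These sums include the 4 regions at promoters of neighbouring genes. The log2 ratio per M reads was 0.17 (-0.03 to 0.38) for TGF-β, -0.38 (-0.59 to -0.17) for set 1 and -0.85 (-1.07 to -0.63) for set 2. Over all regions of the genome called in all 4 libraries, the median ratio on this scale was 0.17, -0.26 and -0.71.

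**Figure D5:**
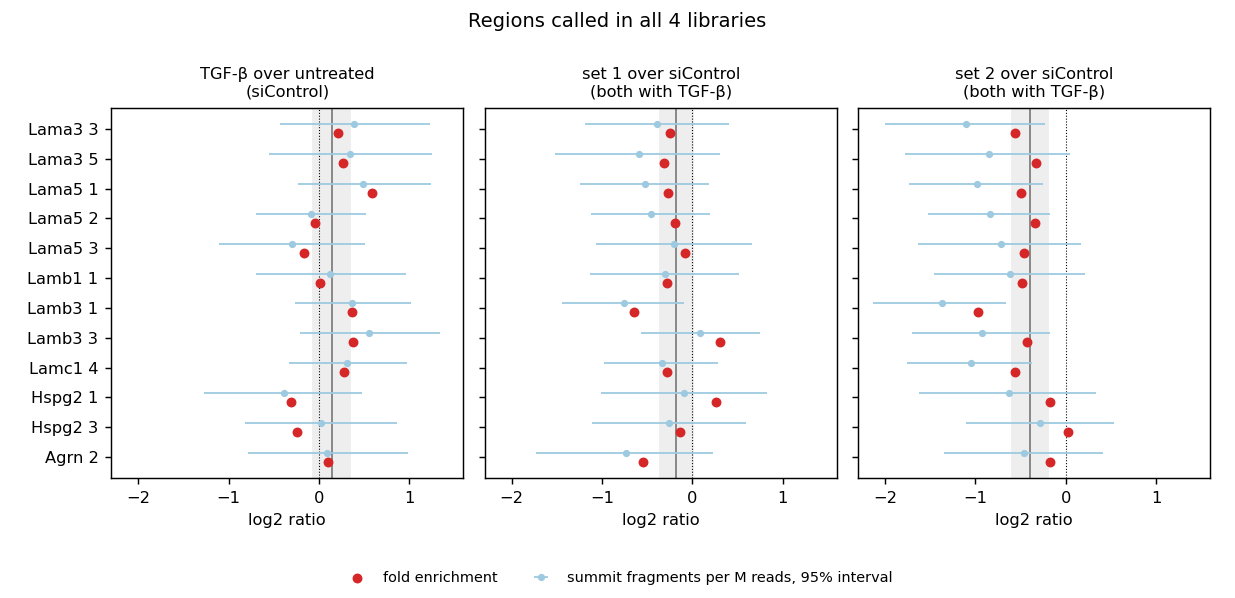
Log2 ratios at the 12 member regions called in all 4 libraries, as fold enrichment (dark red points) and as summit fragments per M reads with 95% exact intervals for counting error (light blue). The grey band and line give the quartiles and the median of the fold enrichment ratio over all 10594 regions. In the panel for set 2, 11 of the 12 fold enrichment ratios lie below 0.

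Sequence letters of the factors of interest were searched in 500 bp windows centred on the member regions. AP-1 letters were present in 19 of 38 (50.0%), against 43.6% of all regions, and ETS letters in 24 of 38 (63.2%), against 59.2%. RUNX letters were present in 3 of 38 (7.89%), against 14.1%. Among the 26 member regions farther than 2 kb from any TSS, AP-1 letters lay in 14 and ETS letters in 17, or 53.8% and 65.4%, against 55.5% and 57.3% of all such regions. Within 200 bp around the summit, ETS letters lay in 17 of the 38 (44.7%), against 36.5% of all. In that window AP-1 letters lay in 16 (42.1%), against 38.1%, and RUNX letters in 3 (7.89%), against 8.08%. For regions farther than 2 kb from any TSS it held AP-1 letters in 42.3% of members, against 49.3% of all. ETS letters lay in 42.3%, against 34.6%, and RUNX letters in 11.5%, against 10.1%. A match of letters is a description and not a binding site.

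Other genes of the basement membrane were examined from lists, none of whose regions lay in the loci above. The 6 remaining laminin chain genes held 23 regions, of which 6 were called in all 4 libraries. They held 14 regions untreated, 21 in TGF-β/siControl, 16 with set 1 and 8 with set 2. Lama2 held 5 of them and Lamb2 held 4. Of the 21 peaks in TGF-β/siControl, 7 (33.3%) were gained and 13 (61.9%) were absent with set 2, where 37.0% and 53.6% of all peaks were. Of the 13 untreated peaks none was lost, where 18.4% of all were. Peaks and merged regions were assigned to the windows separately, so that the number of peaks can fall below that of regions at a window's edge.

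The 13 other basement membrane components, among them the type IV collagen genes, held 56 regions, with 32, 47, 39 and 25 in the 4 libraries. Nid2, the second nidogen gene, held none, like Nid1. Col18a1 held 14, and Col4a2, Sparc and Col15a1 held 7 each. Of their 47 peaks in TGF-β/siControl, 19 (40.4%) were gained and 24 (51.1%) were absent with set 2, again beside 37.0% and 53.6% of all peaks. The 11 receptor and hemidesmosome genes held 92 regions, with 56, 72, 54 and 35. Dst held 22, Plec 16, Itga3 11 and Itgb4 10. The promoters of 4 of these 11 genes, Dst, Itga3, Dag1 and Col7a1, were called in all 4 libraries, which was the case for none of the 8 members, none of the 6 other laminin chain genes and none of the 13 other components. Among all protein-coding genes the share was 23.7%, and these counts carry no test. The median log2 ratio of fold enrichment at regions called in all 4 libraries was 0.08, 0.19 and 0.26 for TGF-β in the other laminin chains, the other components and the receptor list. It was 0.01, -0.25 and -0.10 for set 1 and -0.30, -0.45 and -0.38 for set 2 in the same order.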

How the data were processed

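Peak lists of 4 FAIRE-seq libraries of EpRas cells, 1 per group, were used. Per the study's methods, the authors trimmed Ion Proton reads to 36 bp, aligned these to mm10 (bowtie2), and ran MACS2 with a q-value limit of 0.0001. The submitters' processing notes give MACS2 2.1.0, and the study's methods name another version. The deposited values are a fold enrichment (a ratio), the -log10 of the summit's p-value and of its q-value, and a score that MACS2 makes from the q-value in whole numbers, which was not used further.

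Summit fragments k were solved from the deposited fold enrichment, (k + 1) over (background + 1), and the Poisson -log10 p-value, and were whole within 0.05 in 100% of peaks. Depth came from the lowest background, an effective genome of 1.87 Gb and the shortest peak width. The least number of fragments for a call was estimated from the background in the calling libraries and is a lower limit. Peaks overlapping by at least 1 bp were merged, and the strongest peak per library was kept. Genes came from GENCODE vM21 (basic). Positions refer to the middle of a region. Intervals are 95% exact (Poisson, Clopper-Pearson or conditional binomial), and with 1 library per group no p-value was computed. Python 3.11.15 with pandas 2.3.3, scipy 1.17.1 and pysam 0.24.0 was used, and the steps were tested on simulated data.

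The members and lists were chosen with earlier results of these data known. All 8 members and up to 4 genes per other list, those with the most regions, were named. Nid2, Dag1, Col7a1 and the marker genes, the comparison by distance to a TSS, and the shares over all intronic and upstream regions, were added after values were seen. For those shares an intronic or upstream region lay farther than 2 kb from any TSS, in an intron of a protein-coding gene or, outside gene bodies, within 50 kb upstream of one. Some items that these rules select are not reported here. Alternatives were a q-value limit 100 times stricter, 20 kb upstream, equal list lengths, a promoter of 1 kb, an overlap of 50% of the shorter peak, fragments per M reads, centring on all regions and a 200 bp motif window.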

Additional observations from a re-analysis of the deposited data

How the results depend on the processing

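A q-value limit 100 times stricter removed 0 member peaks, so its 13 values equal the reported ones and test nothing. Of 50 values under the other alternatives, 39 stayed and 11 moved. A count stayed if it changed by no more than 1.5 times, and a share if it lay within its binomial interval. A median ratio stayed if its shift was no larger than the counting error of the pooled ratio. With 20 kb upstream the member regions with set 2 numbered 9. With a promoter of 1 kb, member promoter regions numbered 1 with set 1 and 0 with set 2. With lists of equal length (14925 peaks each), member peaks gained with TGF-β numbered 6, lost 3, absent with set 2 10, called with set 1 only 2 and called with set 2 only 5. The median log2 ratio for set 2 over TGF-β/siControl was -0.85 as summit fragments per M reads and -0.04 after centring on all regions. For set 1 it was -0.08 after centring, against -0.26 in the main setting, which counted as unmoved. ETS letters lay in 44.7% of member regions within 200 bp of the summit. An overlap of 50% moved none of the counts of changed peaks by this much. For the counts with equal lists, every list but that of set 2 was shortened and holds fewer peaks by construction. Peaks called with set 2 only rose from 3 to 5, and there the shortened list was TGF-β/siControl, the one compared with. For the other results the cause was not tested. No paired analysis was possible because each group holds 1 library and the labels give no replicate numbers. No library could be left out for the same reason.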
